A study of Mus musculus with 30 samples.

Results

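The core naive pluripotency transcription factors measured here are Pou5f1, Sox2, Nanog, Esrrb, Tfcp2l1, Tbx3, Zfp42, Prdm14, Nr0b1 and Sall4. They were chosen by name, and the rows of the count table were found by matching the Ensembl identifier, without its version, to these symbols. All 10 were present among the 57186 genes of the table, and the rule itself uses no measured value, though earlier results of these data were known when the members were proposed. Their levels were followed in CGR8, a mouse embryonic stem cell line grown in N2B27 medium with 2i and LIF. NIH/3T3, a mouse fibroblast line grown in DMEM with serum, served as the line in which these factors are expected to be low. Both lines carry the genotype given as ROSA26 SLT knock-in, so the untreated libraries carry it too, and the labels say nothing of clones. Cycloheximide, which blocks elongation on ribosomes, was given at 0.1 µg/mL, with cells harvested after 0, 1, 2, 5 and 48 h. The only untreated libraries are those of 0 h. Time in culture and time in cycloheximide therefore cannot be told apart in the changes below, those at 48 h included. Each line and time had 3 libraries with the letters A, B and C, which makes 30 libraries in 10 groups. The labels do not say that the letters stand for separate cultures, so p-values measure the spread between these samples, which may be technical. The study asked how the transcripts of each line differ from 0 h after the start of the block in protein synthesis.

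The naive state of mouse embryonic stem cells, which resembles the epiblast before implantation, is held by a small group of transcription factors that bind one another's genes. OCT4, the product of Pou5f1, and SOX2 bind DNA together at a composite octamer and SOX element, and NANOG, ESRRB, TFCP2L1 and TBX3 reinforce the same network downstream of LIF and of the inhibitors in 2i. Several of these proteins and transcripts are known to be short-lived. Cycloheximide acts on the proteins, while the libraries measured only the transcripts.

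The members fall into 4 roles. Pou5f1 (POU factor), Sox2 (HMG-box factor) and Nanog (homeodomain factor) form the centre of the network. Esrrb (orphan nuclear receptor), Tfcp2l1 (a CP2-family factor and target of LIF signalling through STAT3) and Tbx3 (T-box factor) make up the naive circuit that responds to signals. Zfp42 (the zinc finger protein REX1) is a classical marker of the naive state. Prdm14 (a PR-domain protein that represses FGF receptor signalling), Nr0b1 (DAX1, a nuclear receptor without a DNA-binding domain that binds OCT4) and Sall4 (a spalt-family zinc finger protein) are modulators of the network.

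On GRCm38 the annotation places Tfcp2l1 and Prdm14 on chromosome 1, Sall4 on chromosome 2, Sox2 on chromosome 3, Tbx3 on chromosome 5, Nanog on chromosome 6, Zfp42 on chromosome 8, Esrrb on chromosome 12, Pou5f1 on chromosome 17 and Nr0b1 on chromosome X. Zfp42 has a processed copy, Zfp42-ps1, that was counted at 84.9 to 170 CPM in every CGR8 library. The level of Zfp42 is therefore uncertain where reads of the copies were split between them. Nanog-ps1 and Nanog-ps2 did not exceed 5 counts in any library. Exons of Pou5f1, Tbx3 and Sall4 overlap antisense or opposite-strand transcripts (Gm19553, Tbx3os1 and Gm14261), none of which exceeded 40 counts in a CGR8 library. Sox2 lies inside Sox2ot on the same strand without a shared exon, and Sox2ot had 0 counts in NIH/3T3.

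Promoters of 7 of the 10 members, with 10 annotated starts, were in the RefSeq table (build GRCm38.p6), and the 250 bases before each start were searched on both strands. Of these, 4 are shown as examples of members with clear and opposite courses below. Nanog and Zfp42 were higher at 5 h, and Esrrb and Tfcp2l1 were lower. Pou5f1 and Nr0b1, also higher at 5 h, are not printed. Each is written in the direction of its gene and ends at the base before the start, and capitals mark matches to the composite octamer and SOX element, the SOX core or the octamer. The windows are chr6:122707239-122707488 (plus strand), chr8:43307010-43307259 (minus strand), chr12:86360867-86361116 (plus strand, the first of the annotated starts) and chr1:118627695-118627944 (plus strand).
Nanog: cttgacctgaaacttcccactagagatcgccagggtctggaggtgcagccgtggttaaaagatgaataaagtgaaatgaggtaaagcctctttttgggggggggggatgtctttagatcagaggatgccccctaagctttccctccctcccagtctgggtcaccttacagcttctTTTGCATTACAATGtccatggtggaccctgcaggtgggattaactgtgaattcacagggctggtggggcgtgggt
Zfp42: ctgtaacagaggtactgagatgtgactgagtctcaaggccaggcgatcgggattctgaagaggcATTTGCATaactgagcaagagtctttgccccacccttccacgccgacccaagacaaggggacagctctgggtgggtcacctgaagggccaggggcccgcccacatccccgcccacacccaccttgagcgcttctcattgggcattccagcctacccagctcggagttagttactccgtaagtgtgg
Esrrb: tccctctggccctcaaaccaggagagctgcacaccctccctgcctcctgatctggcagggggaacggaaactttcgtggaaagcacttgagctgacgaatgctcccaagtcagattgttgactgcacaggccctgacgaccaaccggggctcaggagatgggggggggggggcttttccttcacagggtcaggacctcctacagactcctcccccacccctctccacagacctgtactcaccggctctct
Tfcp2l1: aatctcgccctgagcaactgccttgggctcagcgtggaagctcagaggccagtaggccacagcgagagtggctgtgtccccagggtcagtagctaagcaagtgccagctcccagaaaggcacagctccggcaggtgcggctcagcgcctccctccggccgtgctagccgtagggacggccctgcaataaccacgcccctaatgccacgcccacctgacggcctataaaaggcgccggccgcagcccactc

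The composite element, searched as TTTGCAT, any base and then ACAAT, was found in the window of Nanog at both of its annotated starts, and in 8 of the 32851 promoters of the table (0.0244%). In the Nanog window shown it begins 75 bases before the start and runs into a match of the SOX core ACAATG, which overlaps it. The octamer ATTTGCAT was found in the Zfp42 window and in 1.6% of all promoters. The SOX core was also found at the second start of Pou5f1, and in 10.7% of all promoters. No composite element, octamer or SOX core was in the window of Nr0b1 or of the first Pou5f1 start. Whether matches go with the direction of change was not tested. TATAAA was found in the windows of Tfcp2l1 and Nr0b1 and in 12.4% of all promoters, and it is left in lower case. The letters searched for ESRRB (TCAAGGTCA, 0.387% of promoters), for STAT3 (TTCCNGGAA, 0.913%) and for TFCP2L1 (CCAG, any 6 bases and again CCAG, 2.78%) were in none of the 10 windows. A match describes the sequence and is not a measured binding site.

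The libraries held 18.2 to 30.5 M counts each (M, mega-counts), and no 2 libraries of a group agreed within sampling noise. Col1a1, Col1a2, Col3a1 and Lox separated NIH/3T3 from CGR8, while Postn did not exceed 0.959 CPM in NIH/3T3. Thy1 went the other way, at 1.48 to 4.51 CPM in CGR8 and 0 to 0.0929 CPM in NIH/3T3. The summed level of these 6 fibroblast genes was 2.03 to 5.07 CPM in the CGR8 libraries and 4060 to 10200 CPM in NIH/3T3. In untreated CGR8 the sum was 4.05 to 5.07 CPM, and Thy1 alone averaged 3.95 CPM. In bulk RNA, fewer cells with a transcript and less transcript per cell cannot be told apart. Every level is a share of its library's counts, so a change in total mRNA per cell would not show and was not measured. The rises and falls below are therefore relative to the other transcripts of the library. The CGR8 libraries also differed in how far short transcripts stood above long ones. Relative to the mean of all CGR8 libraries, the median log2 level of coding genes shorter than 2300 bases minus that of longer ones was 0.85 in 5 h A, 0.60 in 5 h B and 0.37 in 5 h C. It was 0.47 in 2 h A, 0.45 in 2 h C and 0.15 in 0 h B, and between -0.17 and 0.11 in the other libraries. The share of mitochondrial counts was 0.26% in 5 h A and 5 h B and 0.43% to 0.76% in the other CGR8 libraries. These values touch the results of the members at 2 and 5 h and are set beside them.

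In untreated CGR8 the members spanned a wide range of transcript level. Per kilobase of transcript, Zfp42 was highest at 500.4 ± 12.4 CPM per kb (SD, n = 3) and Prdm14 was lowest at 10.9 ± 0.675. Pou5f1 stood at 445 ± 37.6 CPM per kb, Nanog at 297 ± 14.3, Esrrb at 206 ± 2.75, Sox2 at 127 ± 6.63 and Tfcp2l1 at 114 ± 7.11. Nr0b1 (68.6 ± 8.68 CPM per kb), Sall4 (68.1 ± 6.53) and Tbx3 (38.9 ± 1.04) followed. In this order only Nr0b1 and Sall4 overlapped in their libraries. The neighbours Zfp42 and Pou5f1 were close, at 490 CPM per kb in the lowest Zfp42 library and 486 in the highest Pou5f1 library. So were Sox2 and Tfcp2l1, at 121 and 119.5. The lengths are those of the annotated transcript with the longest coding sequence of each gene. Which transcripts CGR8 uses was not measured, so the order depends on this choice. Without division by length Tfcp2l1 was highest, at 1076 CPM against 935 CPM for Zfp42. The place of Zfp42 also carries the uncertainty from its processed copy.

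NIH/3T3 was not free of all 10 factors. Sox2 was counted at 501, 516 and 651 reads and Tbx3 at 755, 637 and 1074 reads in the 0 h libraries A, B and C of NIH/3T3. The other 8 members had between 0 and 10 counts in any of the 15 NIH/3T3 libraries. At 0 h Pou5f1, Nr0b1 and Sall4 had 0 counts in all 3, which with the floor of 3 counts over the group leaves CGR8 at least 14800-fold higher for Pou5f1, at least 3020-fold for Nr0b1 and at least 8410-fold for Sall4. Summed over the 3 libraries at 0 h, Tfcp2l1 had 15 counts, Nanog 7, Esrrb 5, and Zfp42 and Prdm14 1 each. These 8 passed the filter on low counts of the joint fit only through CGR8, where they are high, so their difference between the lines is given as levels, with no test. Sox2 and Tbx3 passed it in both lines, and edgeR's quasi-likelihood test called both higher in untreated CGR8 than in untreated NIH/3T3, where 79.1% of the 17549 genes tested were called and 42.8% were called higher. Sox2 was higher by 3.50 ± 0.112 (log2, SE), an 11.3-fold difference, and Tbx3 by 2.48 ± 0.136, a 5.59-fold difference. Line and culture medium cannot be told apart in these values.

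**Figure D1:**
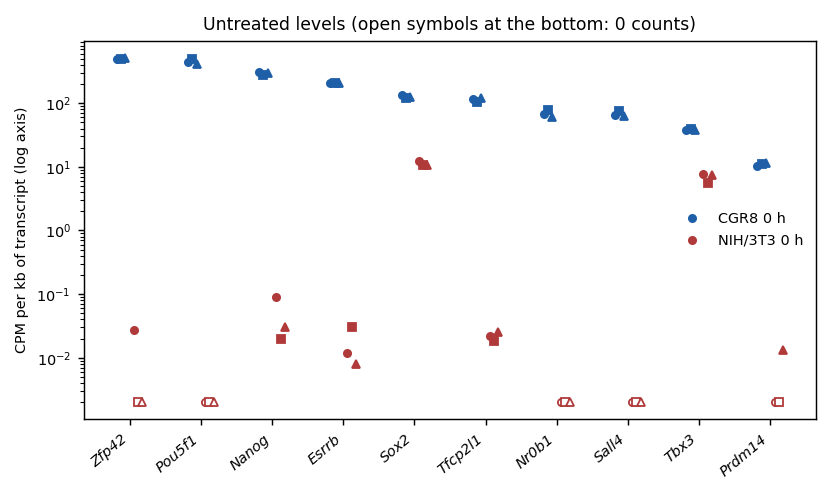
Untreated levels of the 10 members in CPM per kilobase of transcript (log axis) in the 3 CGR8 and 3 NIH/3T3 libraries at 0 h, with open symbols at the bottom for libraries with 0 counts. Each CGR8 point lies above the NIH/3T3 points of its gene, and Sox2 and Tbx3 are the members with NIH/3T3 points above 1 CPM per kb.

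Over the course in cycloheximide no member left the CGR8 transcriptome. The lowest level of any member in any CGR8 library was 19.75 CPM, for Prdm14 in 5 h A. The members did not move as 1 group, and their 5 h levels parted in both directions. Every member passed the filter on low counts in CGR8, so all 10 were tested at each time among 15933 genes.

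**Figure D2:**
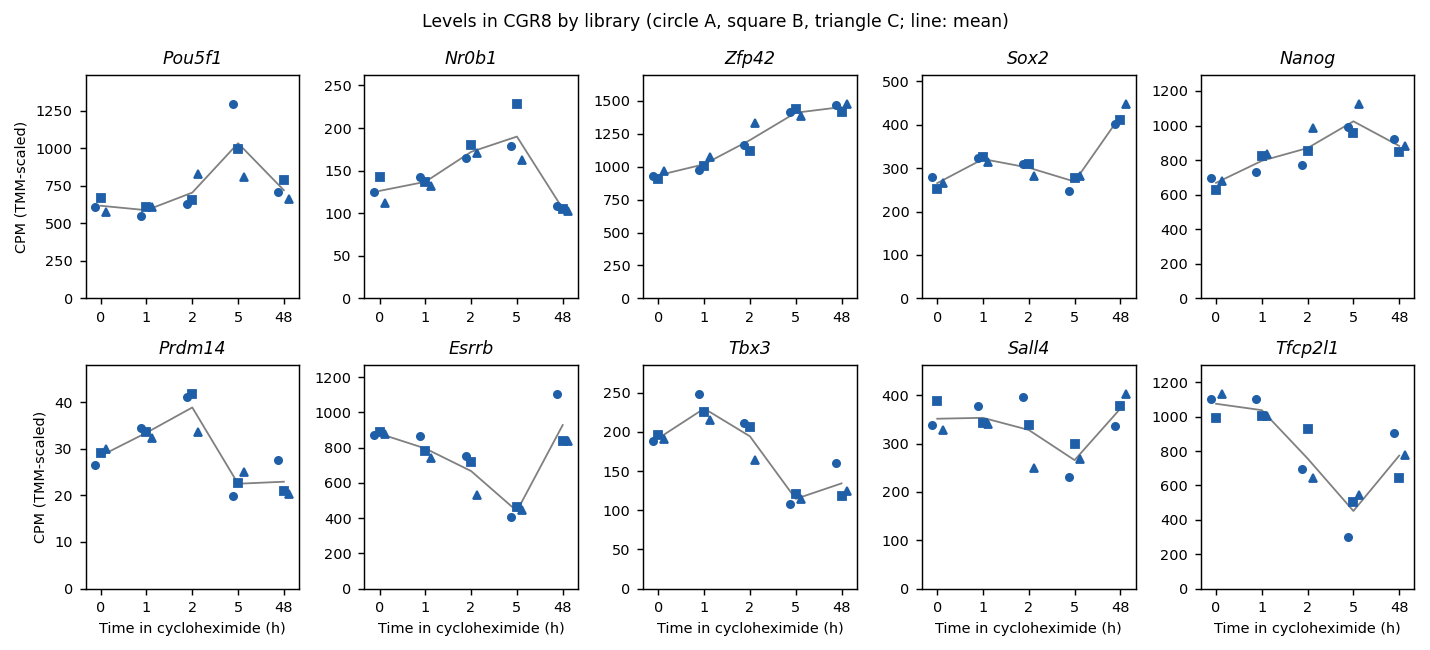
TMM-scaled CPM of each member in the 15 CGR8 libraries against time in cycloheximide (times evenly spaced, not to scale; circle A, square B, triangle C; line, group mean; each panel has its own axis from 0). Pou5f1 and Nr0b1 peak at 5 h, Esrrb and Tfcp2l1 are lowest at 5 h, and Sox2 is highest at 48 h.

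Pou5f1 rose at 5 h. It stood at 606, 669 and 574 CPM at 0 h (A, B, C), at 630, 654 and 828 CPM at 2 h and at 1296, 994.5 and 809 CPM at 5 h. All 3 libraries at 5 h lay above all 3 at 0 h, and 5 h A was the highest. The difference at 5 h was 0.74 ± 0.150 (log2, SE), a 1.68-fold rise (edgeR adjusted p = 0.000696), and with the length and GC trends of the libraries removed it was 0.69. At 48 h the level was 706, 790 and 665 CPM, which overlapped 0 h in 1 library (0.22 ± 0.150, adjusted p = 0.288). That comparison passed the threshold with the trends removed, at 0.40 (adjusted p = 0.0154), and under voom with sample quality weights, at 0.26 (adjusted p = 0.0262).

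Sox2, the partner of OCT4, followed another course. Its levels were 281, 251 and 264.5 CPM at 0 h, 247, 278 and 282 CPM at 5 h and 401, 410 and 448 CPM at 48 h. The 5 h libraries overlapped those at 0 h, with 1 below and 1 above their range, and the 48 h libraries lay above all others. At 5 h the difference was 0.02 ± 0.0898 (log2, adjusted p = 0.873), and its sign changed under library-size scaling, without the filter and with the trends removed. At 48 h Sox2 had risen by 0.66 ± 0.0901, or 1.58-fold (adjusted p = 5.86e-05). Against 5 h the 48 h level was higher by 0.64 ± 0.0901 (adjusted p = 2.22e-05). Sox2 is therefore the 1 member not called at 5 h, and it had the largest rise of the members from 0 to 48 h.

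Nanog rose early and stayed higher. It was at 698, 629 and 678 CPM at 0 h, 774, 852 and 983 CPM at 2 h, 988.5, 958 and 1126 CPM at 5 h and 920, 845 and 881 CPM at 48 h. From 1 h on, each treated library lay above each untreated one. The differences from 0 h were 0.38 ± 0.107 at 2 h (log2, adjusted p = 0.0224), 0.62 ± 0.107 at 5 h (adjusted p = 0.000207) and 0.40 ± 0.107 at 48 h (adjusted p = 0.0106). The 5 h rise was 0.43 and still called with the trends removed, the 48 h rise was 0.41, and the 2 h value was 0.25 with an adjusted p of 0.0559.

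Esrrb fell and returned. Its levels were 874, 887 and 877 CPM at 0 h, 752, 717 and 532 CPM at 2 h, 408, 465 and 447 CPM at 5 h and 1105, 839.5 and 840.3 CPM at 48 h. The 5 h libraries were the lowest of the course and did not overlap 0 h, while those of 48 h lay on both sides of 0 h. Esrrb fell by 0.999 ± 0.136 (log2, SE) at 5 h (adjusted p = 2.54e-05), to 0.5 of the untreated level. From 5 h to 48 h it rose by 1.08 ± 0.136 (adjusted p = 8.7e-06), the largest change of a member between these times in this fit. The fit with the trends removed gave -0.50 at 5 h and 0.63 for the later rise, and both were still called, but there Sox2 (0.82) and Nr0b1 (-0.74) changed more from 5 to 48 h.

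Tfcp2l1 had the largest fall of the members. It was at 1101, 993 and 1133 CPM at 0 h, 697, 931 and 642.5 CPM at 2 h, 303, 506 and 546 CPM at 5 h and 903, 641 and 777 CPM at 48 h. Each library at 2, 5 and 48 h lay below each at 0 h, with 5 h A the lowest. The change at 5 h was -1.25 ± 0.192 (log2, adjusted p = 7.05e-05), which left 0.42 of the untreated level, and with the trends removed it was -0.79 (adjusted p = 2.7e-05). The return from 5 to 48 h was 0.78 ± 0.190 (adjusted p = 0.00242), but 0.12 with an adjusted p of 0.345 once the trends were removed. At 48 h against 0 h the change was -0.48 ± 0.189 (adjusted p = 0.0725), and it passed the threshold with the trends removed, at -0.67 (adjusted p = 0.000145).

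Tbx3, the other factor of the signal-responsive circuit, also fell and did not return. It was at 188, 196 and 191.5 CPM at 0 h, 249, 226 and 216 CPM at 1 h, 108, 120.5 and 115 CPM at 5 h and 160, 118 and 125 CPM at 48 h. The 1 h libraries lay above 0 h, and the 5 h and 48 h libraries lay below it. The changes from 0 h were -0.75 ± 0.123 at 5 h (log2, adjusted p = 0.000131) and -0.52 ± 0.122 at 48 h (adjusted p = 0.00499). Trend removal took the 5 h change to -0.31, with an adjusted p of 0.0111, and left that of 48 h at -0.49.

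Zfp42, the naive marker, rose and stayed high. It was at 930, 910 and 966 CPM at 0 h, 1414, 1436 and 1382 CPM at 5 h and 1469, 1413 and 1479 CPM at 48 h, and the treated libraries lay above the untreated ones at both times. The rise was 0.59 ± 0.0920 (log2, adjusted p = 7.9e-05) at 5 h and 0.64 ± 0.0920 (adjusted p = 0.000101) at 48 h. Both were still called with the trends removed, at 0.33 and 0.67. Its processed copy Zfp42-ps1 moved in the same direction, by 0.72 ± 0.105 at 5 h and 0.81 ± 0.105 at 48 h, from 94.7 CPM at 0 h.

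Nr0b1 had a peak at 5 h. Its levels were 125, 142 and 112 CPM at 0 h, 165, 181 and 170 CPM at 2 h, 179, 228.5 and 163 CPM at 5 h and 109, 105 and 102 CPM at 48 h. The 2 h and 5 h libraries lay above 0 h and those of 48 h below it. It rose by 0.59 ± 0.119 at 5 h (log2, adjusted p = 0.000685), or 0.62 with the trends removed. From 5 to 48 h it fell by 0.85 on the log2 scale (SE 0.119, adjusted p = 2.23e-05), the largest fall of a member between these times. The 48 h level did not pass the test against 0 h (-0.26 ± 0.119, adjusted p = 0.114).

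Prdm14 and Sall4 had calls at 5 h that depended on the processing. Prdm14 was at 26.5, 29.1 and 29.9 CPM at 0 h, 41.1, 41.8 and 33.7 CPM at 2 h, 19.75, 22.7 and 25 CPM at 5 h and 27.5, 21.0 and 20.2 CPM at 48 h. It lay above 0 h at 2 h (0.45 ± 0.131, log2, adjusted p = 0.0266) and below it at 5 h (-0.34 ± 0.133, adjusted p = 0.0417). The 5 h call was lost under 11 of the alternatives run, among them RLE scaling (adjusted p = 0.0608), DESeq2 (adjusted p = 0.0575), trend removal (adjusted p = 0.0541) and leaving out 5 h A (adjusted p = 0.18). At 48 h the change of Prdm14 was -0.31 ± 0.132 (adjusted p = 0.0909), and it was called under voom (-0.35, adjusted p = 0.00795) and without 48 h A (-0.47, adjusted p = 0.0188). Sall4 was at 338, 387.5 and 329 CPM at 0 h, 231, 299 and 267 CPM at 5 h and 337, 377 and 403 CPM at 48 h. Its change at 5 h was -0.40 ± 0.144 (adjusted p = 0.0275), and it was 0.10 with the opposite sign and an adjusted p of 0.525 once the trends were removed. Without 0 h B or without 5 h A the adjusted p for Sall4 was 0.111 and 0.135.

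Counted over the members, edgeR called 0 of 10 at 1 h, where 0.27% of all genes were called, and the changes ran from -0.15 (log2) in Esrrb to 0.27 in Sox2. Sox2, Nanog and Tbx3 had unadjusted p-values of 0.00759, 0.0315 and 0.0479 there, DESeq2 called 0 and voom with sample quality weights called 2 (Sox2 and Nanog). At 2 h 4 members were called higher (Nanog, Zfp42, Prdm14 and Nr0b1) and 1 lower (Esrrb, by 0.40 on the log2 scale), against 19.9% of all genes called, 8.97% higher and 11% lower. That count of 5 was 2 with the trends removed (Prdm14 and Nr0b1), 0 in a fit of only the compared groups and 0 without 0 h A. It was 3 without 0 h B, and 1 without 0 h C or without 2 h C. At 5 h 4 members were called higher and 5 lower, against 52.1% of all genes called, 24.9% higher and 27.2% lower. At 48 h 3 were called higher (Sox2, Nanog and Zfp42) and 1 lower (Tbx3), against 27.8% of all genes, 12.2% higher and 15.6% lower. The count at 48 h (4 of 10) was near the share over all genes. The counts at 2 h (5 of 10) and 5 h (9 of 10) were above it, a difference that was not tested. Each member had at least 445 counts in every CGR8 library, while the filter admits genes from a minimum count of 10. The shares over all genes were not matched to the members' level. The median log2 change of the members was 0.19 at 2 h, -0.16 at 5 h and 0.08 at 48 h, against 0.01, -0.01 and -0.0027 over all genes. With the trends removed 7 members were called at 5 h (4 higher, 3 lower, against 46.6% of all genes) and 6 at 48 h (4 higher, 2 lower, against 36.6%). The median of the members was then 0.01 at 5 h and 0.12 at 48 h, against 0.0039 and 0.0061 over all genes.

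**Figure D3:**
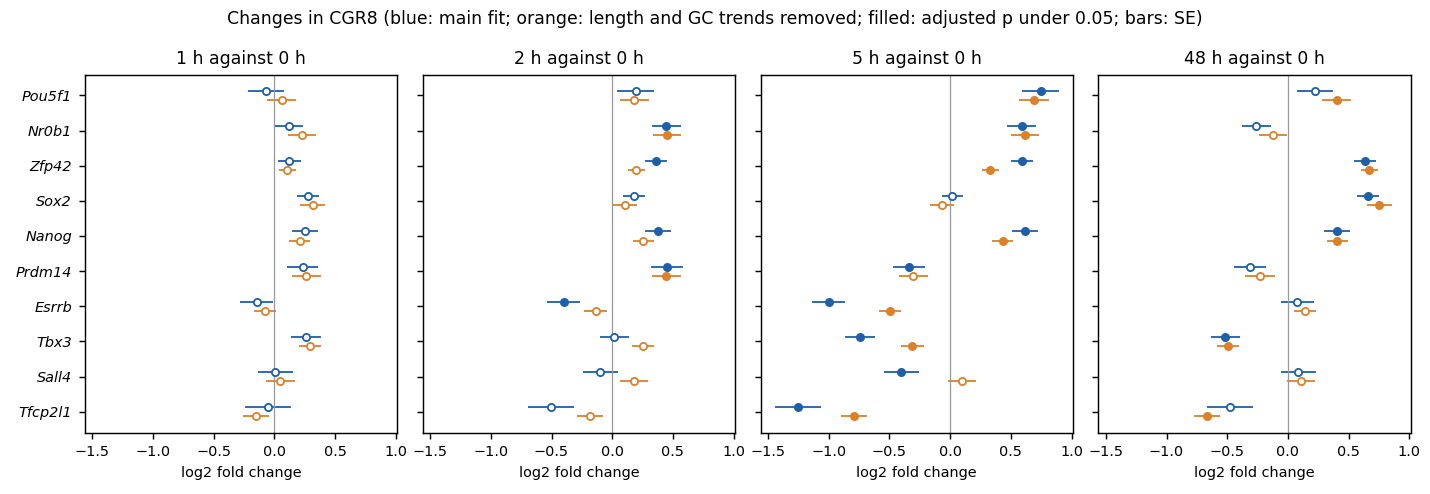
Fitted log2 fold changes of the members against 0 h in CGR8 at 1, 2, 5 and 48 h, with bars for 1 SE, from the edgeR fit (blue) and from the fit with length and GC trends removed (orange); filled points passed an adjusted p of 0.05. Esrrb (-0.999) and Tfcp2l1 (-1.25) are the farthest to the left at 5 h, where the orange points lie nearer to 0, and Sall4 changes side there.

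The members that were higher at 5 h had shorter transcripts than those that were lower. Pou5f1 (1362 bases), Nr0b1 (1808), Zfp42 (1837) and Nanog (2211) were higher, Sox2 (2057) was not called, and Prdm14 (2564), Esrrb (4196), Tbx3 (4856), Sall4 (5073) and Tfcp2l1 (9269) were lower. The same lean ran through the transcriptome at 5 h. Among 13049 coding genes Spearman's rho between length and change was -0.466, which is across genes that are not independent replicates. The median log2 change was 0.32 for genes shorter than 2300 bases and -0.30 for longer ones. Among the shorter genes 42.8% were called higher, and among the longer ones 42.2% were called lower. The boundary was set after the members' lengths were seen. Of the 9 members called at 5 h, 7 kept both call and direction with the length and GC trends removed. The part of the length lean in the members' changes was not tested further. GC content ran from 45.8% in Nanog to 57.6% in Pou5f1. The letters ATTTA, counted in the 3′ UTR, occurred 7 times in Tfcp2l1, 4 times in Sox2, 3 times in Nanog and 0 times in Pou5f1 and Zfp42, and at least once in 64.5% of coding genes.

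**Figure D4:**
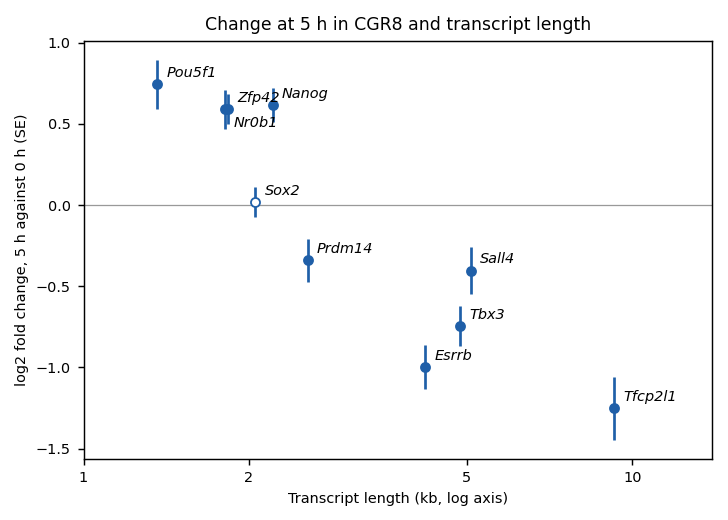
Log2 fold change of each member at 5 h against 0 h in CGR8 (bars, 1 SE; filled, called) against the length of its transcript in kb (log axis). The 4 members above 0 and called are 1362 to 2211 bases long, and the 5 called below 0 are 2564 to 9269 bases long.

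Between 5 and 48 h, 6 members changed in CGR8. Sox2, Esrrb, Tfcp2l1 and Sall4 (0.49 ± 0.144, log2, adjusted p = 0.00884) were called higher at 48 h than at 5 h, and Pou5f1 (-0.52 ± 0.150, adjusted p = 0.00741) and Nr0b1 were called lower, against 57.5% of all genes called, 28.9% higher and 28.6% lower. The comparison of 5 h with 0 h shares the 5 h libraries with this one. The call of Pou5f1 was lost without 5 h A (adjusted p = 0.0511), as was that of Sall4 (adjusted p = 0.051). With the trends removed, Sox2 (0.82), Esrrb (0.63) and Zfp42 (0.34) were called higher and Nr0b1 (-0.74) lower, while Sall4 (0.01), Tfcp2l1 and Pou5f1 (-0.29, adjusted p = 0.0515) were not called.

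Sox2 and Tbx3 could be followed in NIH/3T3 as well, since they alone of the members passed the filter there. Sox2 was at 24.7, 22.0 and 21.4 CPM at 0 h and at 29, 30.4 and 30.7 CPM at 48 h, and the groups did not overlap. It rose by 0.40 ± 0.124 (log2, adjusted p = 0.0119) at 48 h, where 52.3% of the 13941 genes tested in this line were called and 26.7% were called higher. The rise in CGR8 at that time was 0.66, and the difference between the lines did not pass the test (0.24 ± 0.146, adjusted p = 0.267).

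Tbx3 was at 37.3, 27.2 and 35.3 CPM at 0 h in NIH/3T3, 24.0, 24.4 and 24.8 CPM at 5 h and 34.9, 35.5 and 35.35 CPM at 48 h. The 5 h libraries lay below 0 h and the 48 h libraries among those of 0 h. It fell by 0.45 on the log2 scale at 5 h (SE 0.131, adjusted p = 0.00925), where 51% of all genes were called and 27.1% were called lower. That call was lost with the trends removed (-0.17, adjusted p = 0.177) and without 0 h A (-0.36, adjusted p = 0.0534). The fall of Tbx3 at 5 h did not differ detectably between the lines (-0.21 ± 0.184, adjusted p = 0.517). At 48 h the change was 0.08 ± 0.130 in NIH/3T3 and -0.52 in CGR8, and the difference between the lines was -0.62 ± 0.184 (adjusted p = 0.0153). It was the 1 line difference called among the 8 tests of Sox2 and Tbx3 over 4 times. Of all genes, 21.9% had a line difference at 48 h (12.1% lower in CGR8), after 0.16% for the 1 h response, 2.03% for that of 2 h and 13.3% for that of 5 h. It was not called without NIH/3T3 0 h B (-0.47, adjusted p = 0.0731) or without CGR8 48 h B (-0.53, adjusted p = 0.0578). At 1 and 2 h edgeR called neither gene in NIH/3T3, where 0.732% and 35% of all genes were called. Tbx3 had unadjusted p-values of 0.046 and 0.0233 at these times. It was called by voom at both times, by DESeq2 and RLE scaling at 2 h, and at 1 h without 1 h C. With the trends removed it was also called at 2 h (0.555, log2, adjusted p = 0.000548).

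**Figure D5:**
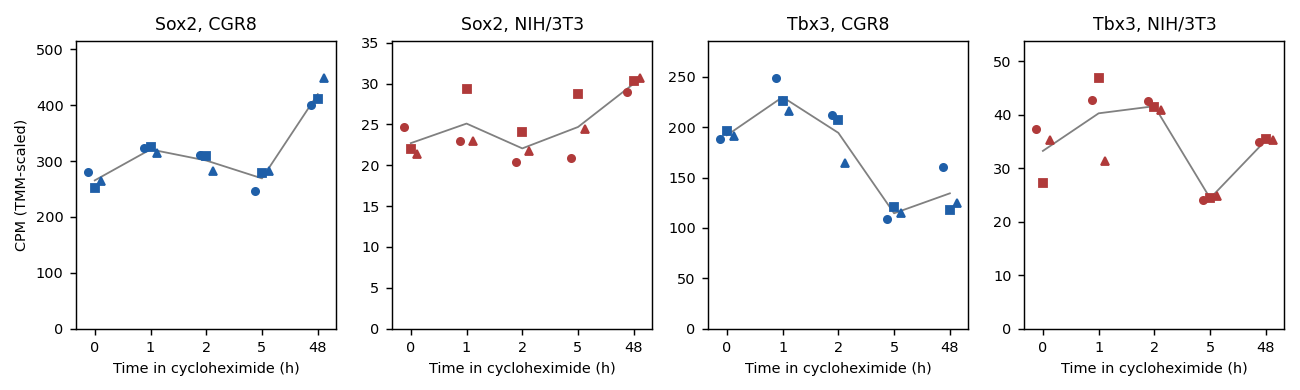
TMM-scaled CPM of Sox2 and Tbx3 by library and time in CGR8 (blue) and NIH/3T3 (red), each panel with its own axis from 0 (times evenly spaced; circle A, square B, triangle C; line, group mean). Sox2 is highest at 48 h in both lines, and Tbx3 at 48 h lies below 0 h in CGR8 but among the 0 h libraries in NIH/3T3.

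The genes with the profiles most like each member over the 15 CGR8 libraries are given as a description. The libraries share depth, time groups and the length lean. Pou5f1 was followed by Rhox5 (Pearson r = 0.98, log2 CPM) and Atp5e (0.97) and was least like Zbtb44 (-0.98). Sox2 was most like Pi4k2b (0.94) and Sgk1 (0.94) and least like Nkx6-2 (-0.94). Nanog was most like Fancb (0.95) and Tbp (0.95), Zfp42 most like Selenos (0.96) and Mcts1 (0.96), and Nr0b1 most like Cbr4 (0.95) and Pdss1 (0.94). Among the members that fell at 5 h, Esrrb was most like Nlgn2 (0.98) and Kank2 (0.98), Tfcp2l1 most like Rai1 (0.98) and Ttc28 (0.98), and Tbx3 most like Pdp2 (0.97) and Plekhg3 (0.97). Prdm14 was most like Flrt3 (0.93) and Pdp2 (0.92), and Sall4 most like Nploc4 (0.95) and Rbm14 (0.94). The genes least like these members were Rnf10 for Nanog (-0.97), Fam3c for Zfp42 (-0.97), Socs2 for Nr0b1 (-0.95), Eloc for Esrrb (-0.98), Ngdn for Tfcp2l1 (-0.99), Rbm45 for Tbx3 (-0.97), Lmo4 for Prdm14 (-0.93) and Cox6c for Sall4 (-0.93).

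The other genes of the network are given by list, beside the shares over all genes of 52.1% called at 5 h and 27.8% at 48 h (46.6% and 36.6% with the trends removed). Of 12 further naive factors, 1 was called higher and 7 lower in CGR8 at 5 h (median log2 change -0.51), and 5 higher and 1 lower at 48 h. Trend removal made these counts 2 and 6 at 5 h (median -0.25) and 6 and 1 at 48 h. The 48 h count of 6 called genes was 1 without 0 h A, 2 without 0 h C, 48 h B or 48 h C, and 3 without 0 h B. Stat3, which carries the LIF signal, fell by 0.74 (log2) at 5 h, and Gbx2 fell by 0.77 at 5 h and by 0.47 at 48 h. Trend removal left these falls called but smaller, at -0.34 for Stat3 and -0.46 for Gbx2 at 5 h and -0.29 for Gbx2 at 48 h. The 48 h call of Gbx2 was lost without 0 h A, 0 h B, 0 h C or 48 h C. Klf4, a Krüppel-like factor of the naive circuit, rose by 0.63 at 48 h, from 248 to 384 CPM. Dppa3, at 2.12 CPM in untreated cells, rose by 1.41 at 5 h (0.72 after trend removal) and 0.57 at 48 h.

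Among 16 partners and co-regulators 0 were called higher and 8 lower at 5 h (2 and 6 with the trends removed), and 4 higher and 1 lower at 48 h (6 and 2 with the trends removed). The shares called in either direction lay near those over all genes, apart from 48 h with the trends removed, where 8 of 16 were called. By direction the 5 h calls of the main fit were all lower (median log2 change -0.33, but -0.0014 with the trends removed). Over all genes 24.9% were called higher and 27.2% lower at that time. Hcfc1 fell by 0.97 and Myc by 0.73 at 5 h, and trend removal took Hcfc1 to -0.29, still called. At 48 h Myc fell by 1.31, while Mycn rose by 0.95 and Trp53, which encodes p53, by 0.55. Of 16 network targets 8 were higher and 4 lower at 5 h, with a median of 0.38, and 2 and 3 at 48 h, or 2 and 1 without 0 h A, 0 h B, 48 h A or 48 h C. After trend removal 8 targets were higher and 3 lower at 5 h, with a median of 0.25, and 4 and 3 at 48 h. Tdgf1, a co-receptor of NODAL, rose by 1.10 at 5 h, from 403 to 865.5 CPM, and Eras rose by 1.05 at 5 h and fell by 0.64 at 48 h. Lefty1 and Lefty2, inhibitors of NODAL, fell by 1.34 and 0.96 at 5 h, and Lefty1 rose by 1.81 at 48 h, where Phc1 rose by 0.44 and Dppa5a fell by 0.56. Of 13 repressors and exit factors 3 were higher and 6 lower at 5 h (4 and 5 with the trends removed), and 5 and 3 at 48 h (6 and 3). Folr1 rose by 1.26 and Sox3 by 0.53 at 5 h, and Fgfr1 fell by 0.83. For Sox3 and Fgfr1 these values were 1.07 and -0.27 after trend removal, both called. At 48 h Jam2 and Tcf7l1, a repressor of the network, rose by 0.53 each, and Etv4 fell by 0.87 and Folr1 by 0.70.

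Genes of the formative and primed state, to which cells move on leaving the naive state, were called in 1 case higher and in 6 cases lower at 5 h, and in 6 higher and 1 lower at 48 h, of 10 tested. After trend removal 4 were higher and 3 lower at 5 h, and 7 and 1 at 48 h. Otx2 rose by 1.17 at 5 h, and Cdh2 fell by 1.47 at 5 h and by 1.54 at 48 h. Lef1 rose from 5.68 to 23.6 CPM (2.05, log2) and Grhl2 from 3.85 to 15.3 CPM (1.99) at 48 h, while Grhl2 had fallen by 1.01 at 5 h (-0.66 after trend removal, adjusted p = 0.0488). Fgf5 did not exceed 0.403 CPM in any CGR8 library.

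The lists of markers of cells that a stem cell culture can also hold were mostly at a low level, and their part in the members' changes was not tested. Sparc, at 255.5 CPM in untreated CGR8, was the exception and stood above Tbx3, Nr0b1 and Prdm14. Of the 5 primitive endoderm genes tested (of 6 listed), 1 was higher and 0 lower at 5 h (Dab2, 1.62, at 1.55 CPM; 2 and 1 with the trends removed), and 1 was higher and 1 lower at 48 h (Gata4 1.503, at 3.43 CPM, and Sparc -1.22). The summed level of the 6 was 221 to 311 CPM at 0 h, 216 to 274 at 5 h and 111 to 116 at 48 h. Sparc alone averaged 255.5, 240 and 110 CPM at these times, so this sum is nearly all Sparc. Of 3 trophectoderm genes tested (of 5), 0 were higher and 1 was lower at 5 h (Cdx2, -1.87), and 2 were lower at 48 h (Cdx2 -1.98 and Krt8 -1.99). The summed level of the 5 was 26.8 to 32.1 CPM at 0 h, 16.1 to 24.3 at 5 h and 8.15 to 11.2 at 48 h. Of 3 neural genes 2 were called higher at both times (Pax6, 0.71 and 0.92, and Nes, 0.58 and 0.73), 3 at 5 h with the trends removed (Nes 1.25), with a sum of 16.3 to 19.5 CPM at 0 h, 24.3 to 30.6 at 5 h and 25.7 to 30 at 48 h. Only 1 neural gene was called at 5 h without 0 h A, 0 h B, 5 h A or 5 h B, and at 48 h without 0 h A, 0 h B, 48 h B or 48 h C. Of 3 mesoderm genes 2 were called lower at 5 h and 3 at 48 h, with a sum of 24.7 to 26.4 CPM at 0 h, 5.69 to 6.52 at 5 h and 3.79 to 5.2 at 48 h. Eomes fell from 21.9 CPM to 4.40 at 5 h and 3.77 at 48 h, and T fell by 1.53 and 2.08 (log2). Of the 2 fibroblast genes tested (of 6), 1 was lower at 5 h (Thy1, -1.06) and 0 were called at 48 h. In CGR8 no marker of the primitive endoderm, trophectoderm, neural or mesoderm lists was at 0 in all 3 libraries of 0, 5 or 48 h.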

How the data were processed

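RNA was sequenced in 30 libraries made with a stranded mRNA ligation kit from column-purified RNA, per the labels' protocols. The authors deposited unnormalized counts per gene for 57186 Ensembl identifiers, and the values are whole numbers with unequal column totals. STAR, DESeq2 and GRCm39 are named in the submitters' processing notes, with no versions or roles. The counting tool, its use of strand and the annotation release were not given in the sources used here. Symbols, transcript lengths, GC content and gene overlaps came from GENCODE M21 on GRCm38 by identifier without version (90.7% of identifiers had a symbol), so no coordinates from it are given. Promoters came from a RefSeq table on GRCm38.p6.

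The counts were fitted by edgeR 4.0.16 in R 4.3.3, with filterByExpr (minimum count 10, minimum total 15), TMM scaling and the quasi-likelihood F test, with 1 fit per line (15 libraries) and 1 fit of all 30 libraries for comparisons between the lines. Benjamini-Hochberg adjustment ran over every gene tested, and an adjusted p under 0.05 counted as a call. CPM (counts per 1 M counts of the library) were computed here from the deposited counts with TMM-scaled totals, and the log2 CPM behind the likeness of profiles used a prior count of 2. A count of 0 was given a floor of 3 counts, which covers counting error only. Library totals ranged from 18.2 to 30.5 M counts.

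Alternatives were RLE factors, library size alone, DESeq2 1.42.0, voom with sample quality weights (limma 3.58.1), no filter on low counts, a mean of at least 5 CPM, only the compared groups, a block for the replicate letter, and fits that left out 1 library each. A fit with each library's trends on transcript length and GC content removed through offsets was added after the data were seen, as was the length boundary of 2300 bases. The tests were checked on simulated counts. These counts held no trend on transcript length or GC content that differed between libraries, so the check does not cover that lean. The members and lists were chosen with earlier results of these data known. All 10 members are named. From every other list the rule names up to 2 genes with the largest called rise and 2 with the largest called fall at 5 h and at 48 h in CGR8, if the higher group averaged 1 CPM or more. One gene that this rule names is not reported here. Genes of like profile are the 2 genes with the highest Pearson r and the 1 with the lowest over the 15 CGR8 libraries, among genes of at least 10 CPM on average.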

Additional observations from a re-analysis of the deposited data

Results flagged for a closer look

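The change of Tbx3 at 48 h differed between the lines by an interaction test. It was -0.62 (log2, CGR8 minus NIH/3T3; SE 0.184, edgeR adjusted p = 0.0153). In CGR8 the 3 libraries at 48 h lay below the 3 at 0 h, and in NIH/3T3 they lay among those at 0 h. Over the 20 alternatives run the difference ranged from -0.75 to -0.47 and its adjusted p from 0.000259 to 0.0731, with the call lost without NIH/3T3 0 h B and without CGR8 48 h B.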

How the results depend on the processing

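Each member had at least 445 counts in every CGR8 library, while 8 of 10 had 0 to 10 counts in the NIH/3T3 libraries and were not tested there. Of the called changes of members, Sall4 at 5 h in CGR8 alone turned direction under an alternative run (0.10, log2, with the length and GC trends removed). Scaling by library size alone moved the median of all genes at 5 h in CGR8 to -0.12 (log2). The main fit did not pair the samples by the letters A, B and C. No comparison had every same-letter correlation over 0.1, which cannot show whether the samples were paired. At 5 h against 0 h in CGR8 these correlations were -0.11 for A, 0.41 for B and 0.41 for C. With a replicate block 8 members were called at 5 h in CGR8 against 9 without it (Prdm14 was lost, adjusted p = 0.0552), and no other call of a member changed. The causes of the changes below were not tested.

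With voom and sample quality weights, 2 members were called at 1 h and 7 at 48 h in CGR8, and 1 each at 1 and 2 h in NIH/3T3. RLE factors and DESeq2 also called 1 at 2 h in NIH/3T3. With the trends removed 2 members were called at 2 h in CGR8, and 1 at 2 h and 0 at 5 h in NIH/3T3. The compared groups alone gave 0 at 2 h in CGR8, where they called 965 of 15077 genes against 3174 of 15933, and 1062 genes were called without 2 h C. Leaving out each library in turn gave 0 to 5 called at 2 h in CGR8, 0 to 1 at 1 h and at 5 h in NIH/3T3, and 0 to 1 line differences.

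The differences that turned sign were uncalled ones near 0, beside Sall4 at 5 h, and are given in log2. With the trends removed they were Pou5f1 at 1 h (0.0592), Sall4 at 2 h (0.18), Sox2 at 5 h (-0.069) and Tbx3 at 48 h against 5 h (-0.18) in CGR8, and Tbx3 at 48 h in NIH/3T3 (-0.0431). RLE factors and DESeq2 each turned Sall4 at 1 h (-0.0049 for both) and the line difference of Tbx3 at 1 h (-0.0088 and -0.0089). Voom turned Tbx3 at 2 h (-0.0167) and Prdm14 at 48 h against 5 h (-0.0428) in CGR8, and the line differences of Tbx3 at 1 h (-0.0772) and Sox2 at 5 h (0.0248). Library size alone turned Sox2 at 5 h (-0.0859). Without the filter Sall4 at 1 h (-0.0388), Tbx3 at 2 h (-0.0076) and Sox2 at 5 h (-0.0079) turned. With the filter on mean CPM, Zfp42 (-7e-04) and Prdm14 (-0.0148) at 48 h against 5 h and the line difference of Tbx3 at 1 h (-0.0048) turned. Leaving out each library in turn gave ranges across 0 for Sall4 at 1 h (-0.0446 to 0.0783) and 2 h (-0.26 to 0.0623), Tbx3 at 2 h (-0.0525 to 0.12), Sox2 at 5 h (-0.02 to 0.0935), Esrrb at 48 h (-0.0664 to 0.14) and Prdm14 at 48 h against 5 h (-0.12 to 0.12) in CGR8. In NIH/3T3 they were -0.10 to 0.0325 for Sox2 at 2 h, -0.0028 to 0.24 for Sox2 at 5 h and -0.0454 to 0.17 for Tbx3 at 48 h. For the line differences they were -0.15 to 0.14 for Tbx3 at 1 h and -0.21 to 0.10 for Sox2 at 5 h.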
